A study of Mus musculus with 27 samples.

Results

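The genes described here are the TGF-β ligands Tgfb1, Tgfb2 and Tgfb3, the receptors Tgfbr1, Tgfbr2 and Tgfbr3, and the signal transducers Smad2, Smad3, Smad4 and Smad7. They were taken by gene symbol from the 3 deposited tables of the series, and all 10 were found among 23420 genes. RNA was sequenced from the 3′ end in B16 mouse melanoma cells, in the parental line and in the clones B16-Tbx2-3xHA cl#02 (clone 2) and cl#09 (clone 9), in which a 3xHA tag was inserted at the endogenous Tbx2 gene, in at least 1 copy. By the study's account, clone 2 seemed to keep some Tbx2 without the tag. Each line was left untransfected, or was transfected with control siRNA (siCtrl) or with siRNA against Tbx2 (siTbx2) and collected after 48 h, with 3 samples in each of the 9 groups and 27 samples in all. Each tagged line is a single clone, so a clone and its tag cannot be told apart.

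The tables give siTbx2 against siCtrl for each line as the authors' own fold changes and p-values, which are not used here. The value used for each gene was the authors' mean normalized count over libraries. It was identical in the 3 tables (largest difference 0.0 over 23508 uniquely named entries), so it belongs to no line and no siRNA. How the 10 genes responded to Tbx2 depletion was therefore not analysed, and no groups were compared. The mean carries no spread and the depth per library is unknown, so no order of neighbouring levels can be set against replicate error. Tbx2, the target of the siRNA, had a mean of 189.7 normalized counts, and its depletion could not be checked from a mean over libraries.

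TGF-β ligands are secreted in a latent form and, once released, bind a pair of receptor kinases. The type II receptor phosphorylates the type I receptor, which phosphorylates SMAD2 and SMAD3, and these enter the nucleus with SMAD4 to regulate genes. SMAD7 is an inhibitor that the pathway itself induces. In cells of the melanocyte lineage TGF-β is known to restrain proliferation and pigmentation, and melanoma cells often secrete it.

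The labelled cell type was checked first. All 7 melanocyte lineage genes were above 10 normalized counts, and 43.2% of all genes had a mean of at least 10. These 7 ranged from a mean of 293.6 for Tyr, the tyrosinase of melanin synthesis, to 48045 for Dct, dopachrome tautomerase. None of the leukocyte, endothelial or keratinocyte markers reached 10, and their means ran from 0.0290 for Ptprc, the leukocyte antigen CD45, to 1.61 for Pecam1, an endothelial adhesion molecule. Of 5 fibroblast markers, the collagen genes Col1a1 and Col1a2 had means of 24.9 and 30.1, Pdgfra had 2.23, Dcn had 0.0728, and Lum was listed at 0. In such bulk RNA, fewer cells of a type and less RNA per cell cannot be told apart.

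One strand of the siRNA acts as the guide that pairs with its target. Because Tbx2 siRNA can also pair with other mRNAs through bases 2 to 8 of the guide, the seed, its sequence and the matching sites are shown here. The study's supplement names siRNA number 06 for parental cells. For clones 2 and 9 the sources used here name no number. Capitals mark the seed in the guide and the bases paired with it in the target sites. The sites are from the GENCODE vM21 annotation of GRCm38.
Guide of Tbx2 siRNA number 06: aGAAAUUUgcaucaaaucc
Tbx2 site: tttgatgcAAATTTCtgttcgag
Tgfbr1 site: agatgcttAAATTTCatcctaac
The Tbx2 site lies on the plus strand of chromosome 11, from 85841243 to 85841249, in exon 7 of 7 and in the 3′ UTR, 229 bases after the stop codon. The guide pairs there at all 19 of its positions. The Tgfbr1 site lies on the plus strand of chromosome 4, from 47414861 to 47414867, in exon 9 of 9 and in the 3′ UTR. It starts 4084 bases after the stop codon and ends 64 bases before the end of the longest annotated 3′ UTR, and 9 of the 19 guide positions pair. Of the 4 annotated Tgfbr1 3′ UTRs 1 holds it, and which of them these cells use was not tested.

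Tgfbr1 was the only one of the 10 genes with a match to the whole seed in its longest 3′ UTR. Over all genes whose 3′ UTR was found, 14.3% (2679 of 18788) held one, and among those with a mean of at least 10 normalized counts the share was 14.2%. The shorter match to guide bases 2 to 7, AATTTC, was present in 6 of the 10 genes against 32.6% of all genes searched. These 6 were Tgfb2, Tgfbr3 and Smad2 with 2 matches each, and Tgfb3, Tgfbr1 and Smad3 with 1 each, the match in Tgfbr1 being part of the longer one. Tgfb1, Tgfbr2, Smad4 and Smad7 held none. The longest 3′ UTRs of the 10 genes ran from 135 to 6233 bases, with a median of 2862.5 against 1019 over all genes searched, and the part of that length in these counts was not tested. A match describes the sequence only, and it does not show that the siRNA acted there.

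**Figure D1:**
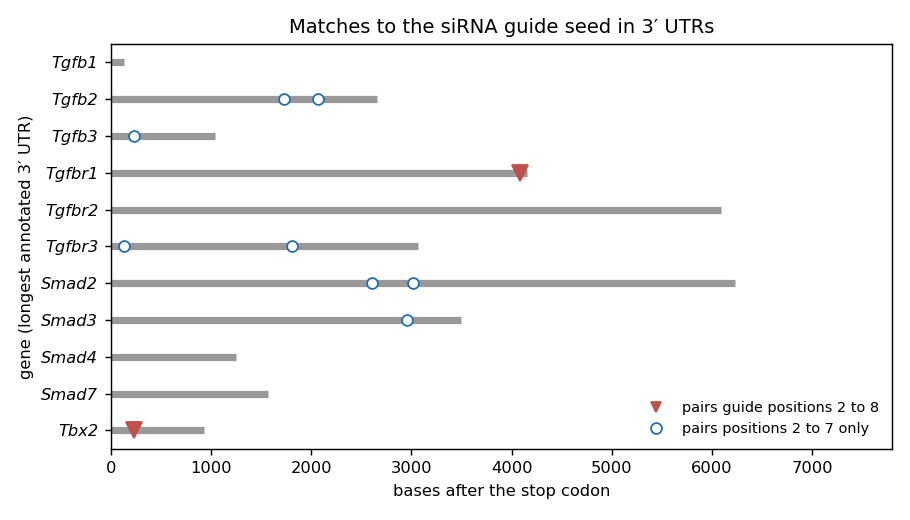
Positions of matches to the seed of the Tbx2 siRNA guide in the longest annotated 3′ UTR of each gene, in bases after the stop codon. Grey lines give the length of the 3′ UTR, filled triangles match guide positions 2 to 8, and open circles match positions 2 to 7 only. The filled triangle in Tgfbr1 lies near the end of a 3′ UTR of 4154 bases, and Tbx2 holds the other.

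Among the ligands, Tgfb2 and Tgfb3 made up most of the reads and Tgfb1 was low. Tgfb3 had a mean of 48.5 normalized counts, at percentile 62.8 of the 20896 genes with a mean above 0, and Tgfb2 had 42.6, at percentile 61.5. Tgfb1, the isoform best known from platelets and immune cells, had a mean of 7.56, close to the median of 7.48 over these genes. Among genes with a mean of at least 1, Tgfb1 stood at percentile 21.0, Tgfb2 at 39.05 and Tgfb3 at 41.2. Of the summed ligand mean of 98.7, Tgfb3 held 49.2%, Tgfb2 43.2% and Tgfb1 7.66%. The mean of Tgfb3 was 6.42 times that of Tgfb1 and 1.14 times that of Tgfb2. Because the kit reads transcripts at their 3′ ends, counts were not divided by transcript length, and how well each 3′ end is captured was not tested. Tgfb1 lies on chromosome 7 from 25687002 to 25705077 on the plus strand and has the shortest 3′ UTR of the 10 genes in the annotation, at 135 bases. Tgfb2 lies on the minus strand of chromosome 1 from 186622792 to 186705989. Tgfb3 lies on the minus strand of chromosome 12 from 86056745 to 86079041, and its 3′ UTR overlaps Ttll5 on the other strand. The sources used here do not say whether the authors counted by strand, so reads of Tgfb3 and Ttll5 may not have been separated.

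Both signalling receptors were well above the ligands. Tgfbr2, the type II receptor, had a mean of 171 normalized counts, at percentile 79.8, and Tgfbr1, the type I receptor, had 121, at percentile 74.6. The mean of Tgfbr2 was 1.42 times that of Tgfbr1. Tgfbr3, the coreceptor betaglycan that presents ligand to the type II receptor, had a mean of 9.62, at percentile 51.4 (23.1 among genes with a mean of at least 1) and 17.8 times below Tgfbr2. It held 3.19% of the summed receptor mean of 301.8, against 56.8% for Tgfbr2 and 40.1% for Tgfbr1. Betaglycan is known to be needed most for TGF-β2, the ligand encoded by Tgfb2. Tgfbr1 lies on the plus strand of chromosome 4 from 47353222 to 47414931, Tgfbr2 on the minus strand of chromosome 9 from 116084293 to 116175360, and Tgfbr3 on the minus strand of chromosome 5 from 107106570 to 107289629.

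Smad4, the common partner of the receptor-regulated SMADs, had the highest mean of the 10 genes, with 245 normalized counts at percentile 84.5. Smad2 and Smad3, which the type I receptor phosphorylates, had means of 165 and 132, at percentiles 79.2 and 75.8. The mean of Smad2 was 1.26 times that of Smad3. Smad7, the inhibitor, had a mean of 34.7, which was 7.07 times below Smad4. It stood at percentile 59.6, and at 36.1 among genes with a mean of at least 1. Of the summed SMAD mean of 576.7, Smad4 held 42.5%, Smad2 28.7%, Smad3 22.8% and Smad7 6.01%. Smad3 lies on the minus strand of chromosome 9 from 63646767 to 63757994. Smad2, Smad4 and Smad7 all lie on chromosome 18, Smad2 and Smad7 on the plus strand and Smad4 on the minus strand.

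**Figure D2:**
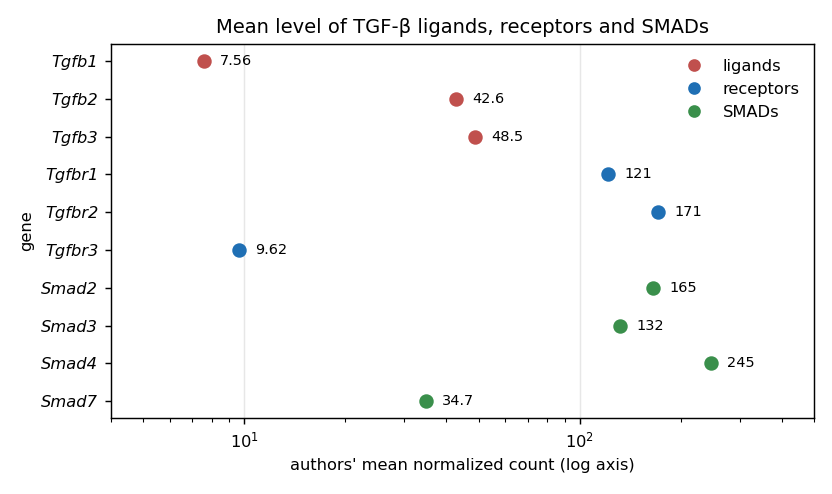
The authors' mean normalized count of each gene on a log axis, with ligands in red, receptors in blue and SMADs in green. Each point is 1 mean over libraries and has no error bar. Smad4 is highest at 245, and Tgfb1 and Tgfbr3 are the only genes under 10.

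From highest to lowest, the order of the means was Smad4, Tgfbr2, Smad2, Smad3, Tgfbr1, Tgfb3, Tgfb2, Smad7, Tgfbr3 and Tgfb1. The highest was 32.4 times the lowest. Of the 10 genes, 8 had a mean of at least 10 normalized counts, against 43.2% of all genes. The 5 highest were Smad4, Tgfbr2, Smad2, Smad3 and Tgfbr1, genes that carry the signal from the membrane to the nucleus. Many genes outside the pathway were as high, since Tgfbr1, the lowest of the 5, stood at percentile 74.6 of genes with a mean above 0. Tgfbr2 and Smad2 differed by a factor of 1.04 and Smad3 and Tgfbr1 by 1.09, and no spread is at hand to say whether such neighbours differ.

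**Figure D3:**
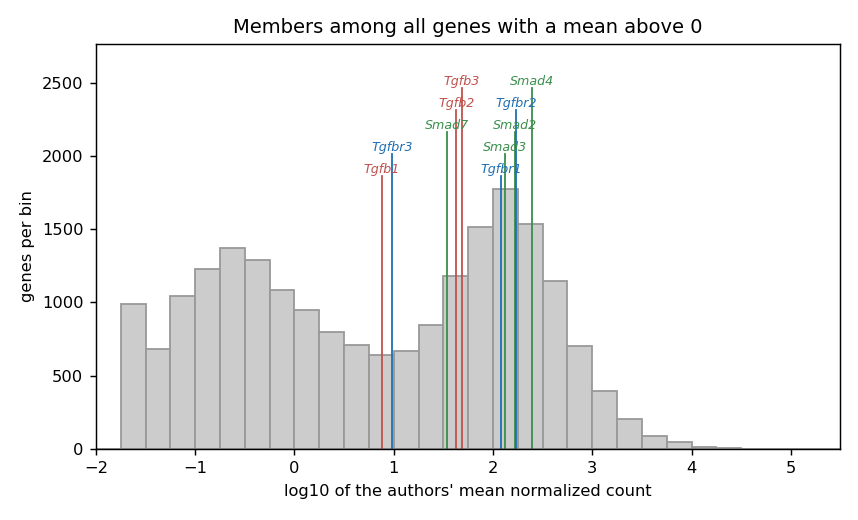
Number of genes in bins of the log10 of the authors' mean normalized count, for the 20896 genes with a mean above 0, with a line at each of the 10 genes. Ligand lines are red, receptor lines blue and SMAD lines green, and heights of the lines carry no value. Tgfb1 and Tgfbr3 lie in the trough between genes of low and of high level, Smad7, Tgfb2 and Tgfb3 on the rise to its right, Tgfbr1, Tgfbr2, Smad2 and Smad3 at the peak, and Smad4 in the next bin above it.

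Other parts of the pathway were described from lists, by the number of genes with a mean of at least 10 normalized counts. Over all genes, 43.2% reached that level. For the latency and activation of the ligands, 7 of 12 (58.3%) reached it. Furin, the protease that cleaves the precursor, had 347.6, Itgav, the αV integrin chain that takes part in release from latency, had 202.9, and Itgb5, an integrin β chain that pairs with it, had 90.1. The lowest were Ltbp2, a latent TGF-β binding protein family member, at 0.612, and the integrin β chains Itgb6 at 0.830 and Itgb8 at 1.70. Those β chains are the best known partners of αV in activating TGF-β. Among other receptors of the superfamily, 7 of 12 (58.3%) reached 10. Eng, the coreceptor endoglin, had 416.6, Bmpr1a, a BMP type I receptor, had 124.1, and Acvr1, another type I receptor, had 110.4. The lowest of that list were Bmpr1b at 0.545, Acvr1c at 0.557 and Amhr2, the anti-Müllerian hormone receptor, at 1.48. Eng thus had a mean above those of Tgfbr1, Tgfbr2 and Tgfbr3 taken singly.

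All 4 of the other SMADs reached 10 normalized counts, with Smad5, which BMP receptors phosphorylate, at 470.5, the inhibitor Smad6 at 56.8, Smad1 at 55.2 and Smad9 at 32.8. Smad5 was above Smad4. Of the regulators of SMAD signalling, 13 of 16 (81.2%) reached 10, against 43.2% of all genes. Fkbp1a, which binds and restrains type I receptors, had the highest mean at 2680, followed by Strap, a receptor-associated protein, at 1965 and the ubiquitin ligase Nedd4l at 552.4. The lowest were Foxh1, a SMAD partner of the early embryo, at 0.125, Foxo3 at 2.02 and Zfyve9, an adaptor that brings SMADs to the receptor, at 2.65. Of known target genes, 11 of 14 (78.6%) reached 10, with Id2 at 3663, Id3 at 1873 and the cell cycle inhibitor Cdkn1a at 1237. Cdkn2b, Snai1 and Tgfbi were lowest, at 0.212, 0.804 and 0.807. Many of these targets answer to other pathways too, so their levels do not measure TGF-β signalling. The targets include Smad7 and Skil, which are also counted among the SMADs above and the regulators.

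None of 14 other ligands of the superfamily reached 10 normalized counts, a level reached by 43.2% of all genes. A mean of 1 was reached by 4, and the share of all genes at 1 was not computed. Gdf11 was highest at 7.38, then Gdf15 at 4.34 and Gdf3 at 2.61, and the lowest were Bmp2 at 0.0358, Lefty1 at 0.332 and Mstn, which encodes myostatin, at 0.387. Their median was 0.523. Tgfb2 and Tgfb3 were therefore above each of these 14 genes, and so was Tgfb1, at 7.56 against 7.38 for Gdf11, a gap that cannot be told from 0 without a spread.

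**Figure D4:**
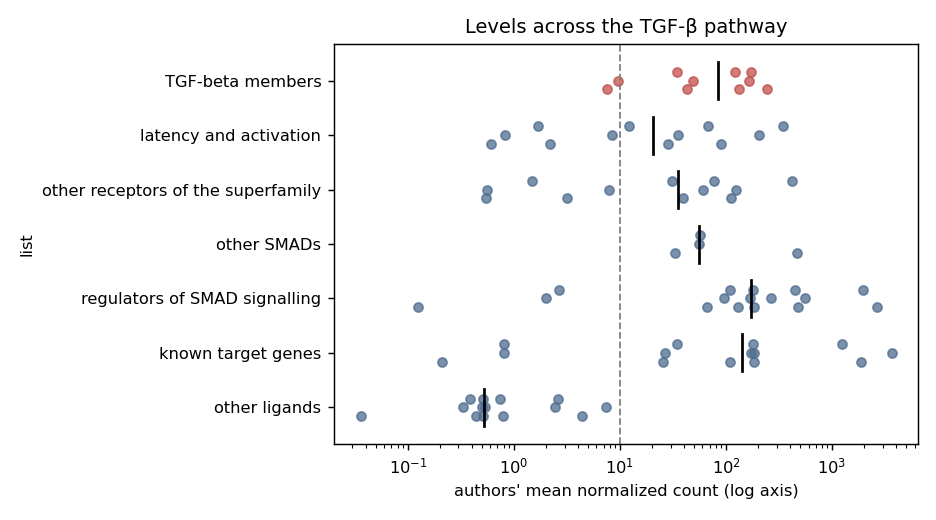
The authors' mean normalized count, on a log axis, of each gene in 7 lists, with a short vertical line at the median of each list and a dashed line at 10. The TGF-β ligands, receptors and SMADs are in red. Their median of 84.7 lies between those of known target genes (141.0) and other SMADs (56.0), and that of regulators of SMAD signalling is highest (172.5). The other ligands all lie left of the dashed line.

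Tbx2 is known as a DNA-binding repressor of the T-box family, and the consensus motif of that family is the T-element. The study reports E-boxes as well as T-elements at the sites Tbx2 bound, and proposes that Tbx2 may also maintain the expression of some genes. It also reports motifs of the transcription factors SOX10 and TEAD at bound sites, which were not searched here. The DNA probes listed for the study's binding assays hold a T-element or a CACGTG E-box, so the promoters at hand were searched for both. RefSeq promoters of GRCm38.p6, from 250 bases before the start to 50 after it, were at hand for Tgfb1, Tgfb2, Tgfbr1, Tgfbr2 and Smad3, 5 of the 10 genes. An E-box, CACGTG, was found in that of Tgfb2 and in no other, and 7.15% of all 32851 promoters hold it. The motif is its own reverse complement, so each match was counted once. It lies on chromosome 1 from 186706035 to 186706040, starting 51 bases before the start of the gene. A single copy of the T-element, AGGTGTGA, searched on both strands, was in none of them and is in 419 of all 32851 promoters. The stretch of Tgfb2 that holds the E-box is shown on the strand of the gene, with the motif in capitals.
Tgfb2 promoter: tgaaggcaaaCACGTGgtttggggag
A match is a description of the sequence, and no binding data were analysed here.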

How the data were processed

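RNA from 27 samples in 9 groups was grouped by line and siRNA as labelled. Per the labels and the study's methods, the authors used STAR 2.6.1d for alignment to mm10 after quality checks by FastQC 0.11.7. Gene counts came from featureCounts (Subread 1.6.2), and the authors' model from DESeq2 1.28.1. The only signal used from the deposited tables was a mean over libraries of counts that the authors scaled by size factors. Which libraries enter that mean is not stated, but the same values stand for all 3 comparisons of siTbx2 with siCtrl. They are therefore taken to pool depleted and control cells of the 3 lines. Whether untransfected samples enter as well is unknown. The deposited tables also hold the authors' fold change, its standard error, test statistic, p-value and adjusted p for siTbx2 against siCtrl in each line. These columns hold the authors' findings and were not used. Of 23512 entries, 92 spike-in transcripts were left out, and 2524 of the 23420 genes have a mean of 0. Percentiles are the share of genes with a mean above 0 that lie below the gene. Gene symbols missing from the tables were matched through RefSeq synonyms. Seed matches were searched in protein-coding 3′ UTRs of at least 30 bases from GENCODE vM21 (GRCm38, the assembly of mm10), the longest of each gene. The named genes were every member, Tbx2, and the 3 highest and 3 lowest of each list. The members and lists were chosen with earlier results of these data known. The motif search was tested on simulated sequences of C and G with and without a planted site, and the percentile on a simulated list. The extraction of 3′ UTRs, the mapping of sites to the genome and the count of paired guide positions were not tested in that way. Python 3.11.15, pandas 2.3.3 and matplotlib 3.10.9 were used. The alternatives tried were other sets of genes for the percentile, other minimum means, a shorter seed and any annotated 3′ UTR.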

Additional observations from a re-analysis of the deposited data

How the results depend on the processing

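The median percentile of the 10 genes, 68.7 over genes with a mean above 0, was 50.5 over genes with a mean of at least 1 and 72.1 over all genes. Tgfb1 moved from 50.1 to 21.0 and Tgfbr3 from 51.4 to 23.1 when genes with a mean under 1 were left out, which removes genes below both. By the same change Smad7 moved from 59.6 to 36.1, Tgfb2 from 61.5 to 39.05 and Tgfb3 from 62.8 to 41.2. Each of the 10 genes had a lower percentile over genes with a mean of at least 1 and a higher one over all genes. Both shifts had to follow, because all 10 genes have means above 1, so they do not show how stable the levels are. Of the 70 other pathway genes, 40 had a mean of at least 10, 52 of at least 1 and 32 of at least 50. Over all genes, 43.2% had a mean of at least 10. The shares at 1 and 50 were not computed, so counts at those levels cannot be set against all genes. For latency and activation 7 genes reached 10 and 4 reached 50, and among other ligands none reached 10 and 4 reached 1. A seed match was found in 1 of the 10 genes with guide bases 2 to 8, in 6 with bases 2 to 7, a shorter motif, and in 1 when any annotated 3′ UTR was searched. No paired analysis was possible because the values used are 1 mean over libraries, and for the same reason no replicate was left out and no count test was run. The planned comparison of protein sequences was not run. Depth is unknown, so the precision of means near 10 and below cannot be given.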
